A study of Mus musculus with 20 samples.

Results

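The immediate early genes described here are Fos, Fosb, Jun, Junb, Egr1, Nr4a1, Nr4a3, Atf3, Ier2 and Ier3, 10 genes out of 18193 named by the array, listed by name, with earlier results of these data known. Each gene was taken on its brightest probe set among those annotated with its symbol alone. The 10 genes had 13 such probe sets out of 45101, with 2 for Jun and 3 for Nr4a3, and all 10 genes passed the filter on low signal that left 11081 genes for testing. The series asked how the mouse aorta responds when the nuclear receptor PPARγ is activated or interfered with. Adult C57BL/6J mice ate chow alone (3 arrays) or took rosiglitazone, a drug that binds and activates PPARγ, in their food at 3 mg/kg/day for 2 days (3 arrays), 3 mg/kg/day for 14 days (3 arrays), 10 mg/kg/day for 2 days (3 arrays) or 10 mg/kg/day for 14 days (2 arrays). In the other experiment, adult mice with the P465L substitution knocked into their own PPARγ gene, which the submitters call dominant negative (3 arrays), were set beside wild-type littermates (3 arrays). The knock-in is in the germ line and so not limited to the vessel wall. The sources used here do not give its zygosity, its strain, the exact ages or the time of day of dissection. Every array held RNA pooled from 8 aortas, so the spread below is between pools, and p-values measure that spread and not the spread between mice.

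Immediate early genes are transcribed within minutes of a stimulus, from transcription factors that are already present in the cell, and their messengers are short-lived. Fos and Fosb pair with Jun or Junb to form AP-1, a dimer that binds DNA in the promoters of growth, matrix and inflammatory genes. Egr1 is a zinc finger factor, Nr4a1 (Nur77) and Nr4a3 (Nor1) are orphan nuclear receptors, Atf3 is a stress-induced factor of the ATF/CREB family, and Ier2 and Ier3 are small proteins induced by growth factors and stress. In the vessel wall these genes are known to respond to stretch, injury, growth factors and vasoactive hormones, and signals through cAMP and the factor CREB act on promoters that hold the cAMP response element TGACGTCA or its shorter core TGACG.

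Promoter sequence was in hand for 8 of the 10 genes, from RefSeq on GRCm38.p6, as 250 bases before to 50 after an annotated start. For Fosb, Nr4a1 and Nr4a3 the start used lay inside the annotated span of the gene, downstream of its first base. The stretches printed for these genes also lie inside that span. Motifs were searched in the 250 bases before the start on both strands, except the TATA box, searched on the strand of the gene only. The core TGACG was found in 6 of the 8 windows, those of Fos, Fosb, Junb, Nr4a1, Nr4a3 and Atf3, and in 17.8% of 32851 mouse windows of that length. The windows around it are printed because these genes are the AP-1, Nr4a and Atf3 genes whose signals are followed below. Each is shown on the strand on which it reads TGACG, 5′ to 3′. In each line the capitals mark TGACG, and also the TATA box TATAAA in Fos and the CCAAT box in Junb.
Fos, chr12:85473755-85473889, plus strand: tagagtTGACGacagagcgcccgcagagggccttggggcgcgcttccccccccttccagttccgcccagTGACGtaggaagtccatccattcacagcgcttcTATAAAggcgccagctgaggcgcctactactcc
Junb, chr8:84978749-84978863, minus strand: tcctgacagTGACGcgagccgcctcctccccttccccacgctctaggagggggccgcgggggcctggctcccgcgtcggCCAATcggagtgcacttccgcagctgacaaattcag
Fosb, chr7:19310091-19310115, minus strand: gagttgcgggTGACGcaagcgcggg
Nr4a1, chr15:101266796-101266820, minus strand: aagcgctccgTGACGcatggagagg
Nr4a3, chr4:48045148-48045172, plus strand: gtggcataaaTGACGtgccgagaga
Atf3, chr1:191183326-191183350, plus strand: aatcccaggcTGACGtaatgctatt

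Counted from the start used to the first base of the motif, Fos carried TGACG at -129 and -66 and a TATA box at -33. Nr4a1 and Nr4a3 each held 4 copies of TGACG, Fosb, Junb and Atf3 held 1, and neither the Jun nor the Ier3 window held any. The GC box GGGCGG was in 7 of the 8 windows, against 32.7% of all windows, and the EGR site GCGNGGGCG was in 2, those of Fosb and Nr4a1, against 4.7%. The full element TGACGTCA, the AP-1 site TGANTCA, the serum response element core known as the CArG box, the Nr4a site AAAGGTCA and the PPAR response element were in 0 of the 8, against 1.55%, 6.75%, 1.47%, 1.34% and 0.03% of all windows. These letters describe the windows only. Bases further upstream were not searched, and Egr1 and Ier2 had no window.

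The deposited values were linear signals per probe set, and every array had been scaled to a 2% trimmed mean of 1500. Values below are these signals, and fold changes are on the scale of log2(signal + 72), which understates the change of dim genes. Log2 signals of 2 arrays in 1 group correlated across all genes at 0.964 to 0.988. The aorta's own markers were present, with 5 of 5 smooth muscle markers and 4 of 4 endothelial markers above the filter, and the summed smooth muscle signal varied 1.46-fold over the 20 arrays. Tissue around the vessel was also there: 3 of 4 skeletal muscle markers and 3 of 5 adipocyte markers were above the filter, and the summed skeletal muscle signal varied 38.3-fold. In such tissue RNA, fewer cells of a type and less RNA per cell cannot be told apart.

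The first comparison asked how the immediate early genes stood with rosiglitazone, as the average of its 4 dose and time groups against chow. The average was higher than chow for 9 of the 10 genes and lower for Ier2, with Atf3, Fosb, Nr4a3, Nr4a1 and Fos between 1.31-fold and 1.49-fold of chow. None was past the threshold: limma called 0 of the 10 at an adjusted p under 0.05, where it called 0.433% of all genes tested, and 5 of the 10 had an unadjusted p under 0.05, against 14.2% of all genes. The median log2 fold change of the 10 genes was 0.23, and that of all genes tested was -0.02. Higher averages were seen for 45.0% of all genes. The 4 rosiglitazone groups share the same 3 chow arrays, so a chow array that lies high or low moves all of them together. Brown adipocyte markers, with 3 of 3 above the filter, moved with the same groups: their summed signal was 20984 to 48206 in chow and 51376 to 121352 over the rosiglitazone arrays. Over the 20 arrays their level correlated with the mean of the 10 genes at Pearson's r 0.08 and Spearman's rho 0.10, a description only. The summed endothelial signal (4 of 4 markers above the filter) separated the same groups the other way, at 20317 to 24596 in chow and 13783 to 18686 over the rosiglitazone arrays. A sum is weighted to its brightest markers. The mean log2 signal of these 4 markers, each minus its own mean over the 20 arrays, did not separate the groups. It was -0.02 in chow, -0.17 at 10 mg/kg/day for 2 days and 0.07 in each other rosiglitazone group. The part of either cell type in these values was not tested.

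**Figure D1:**
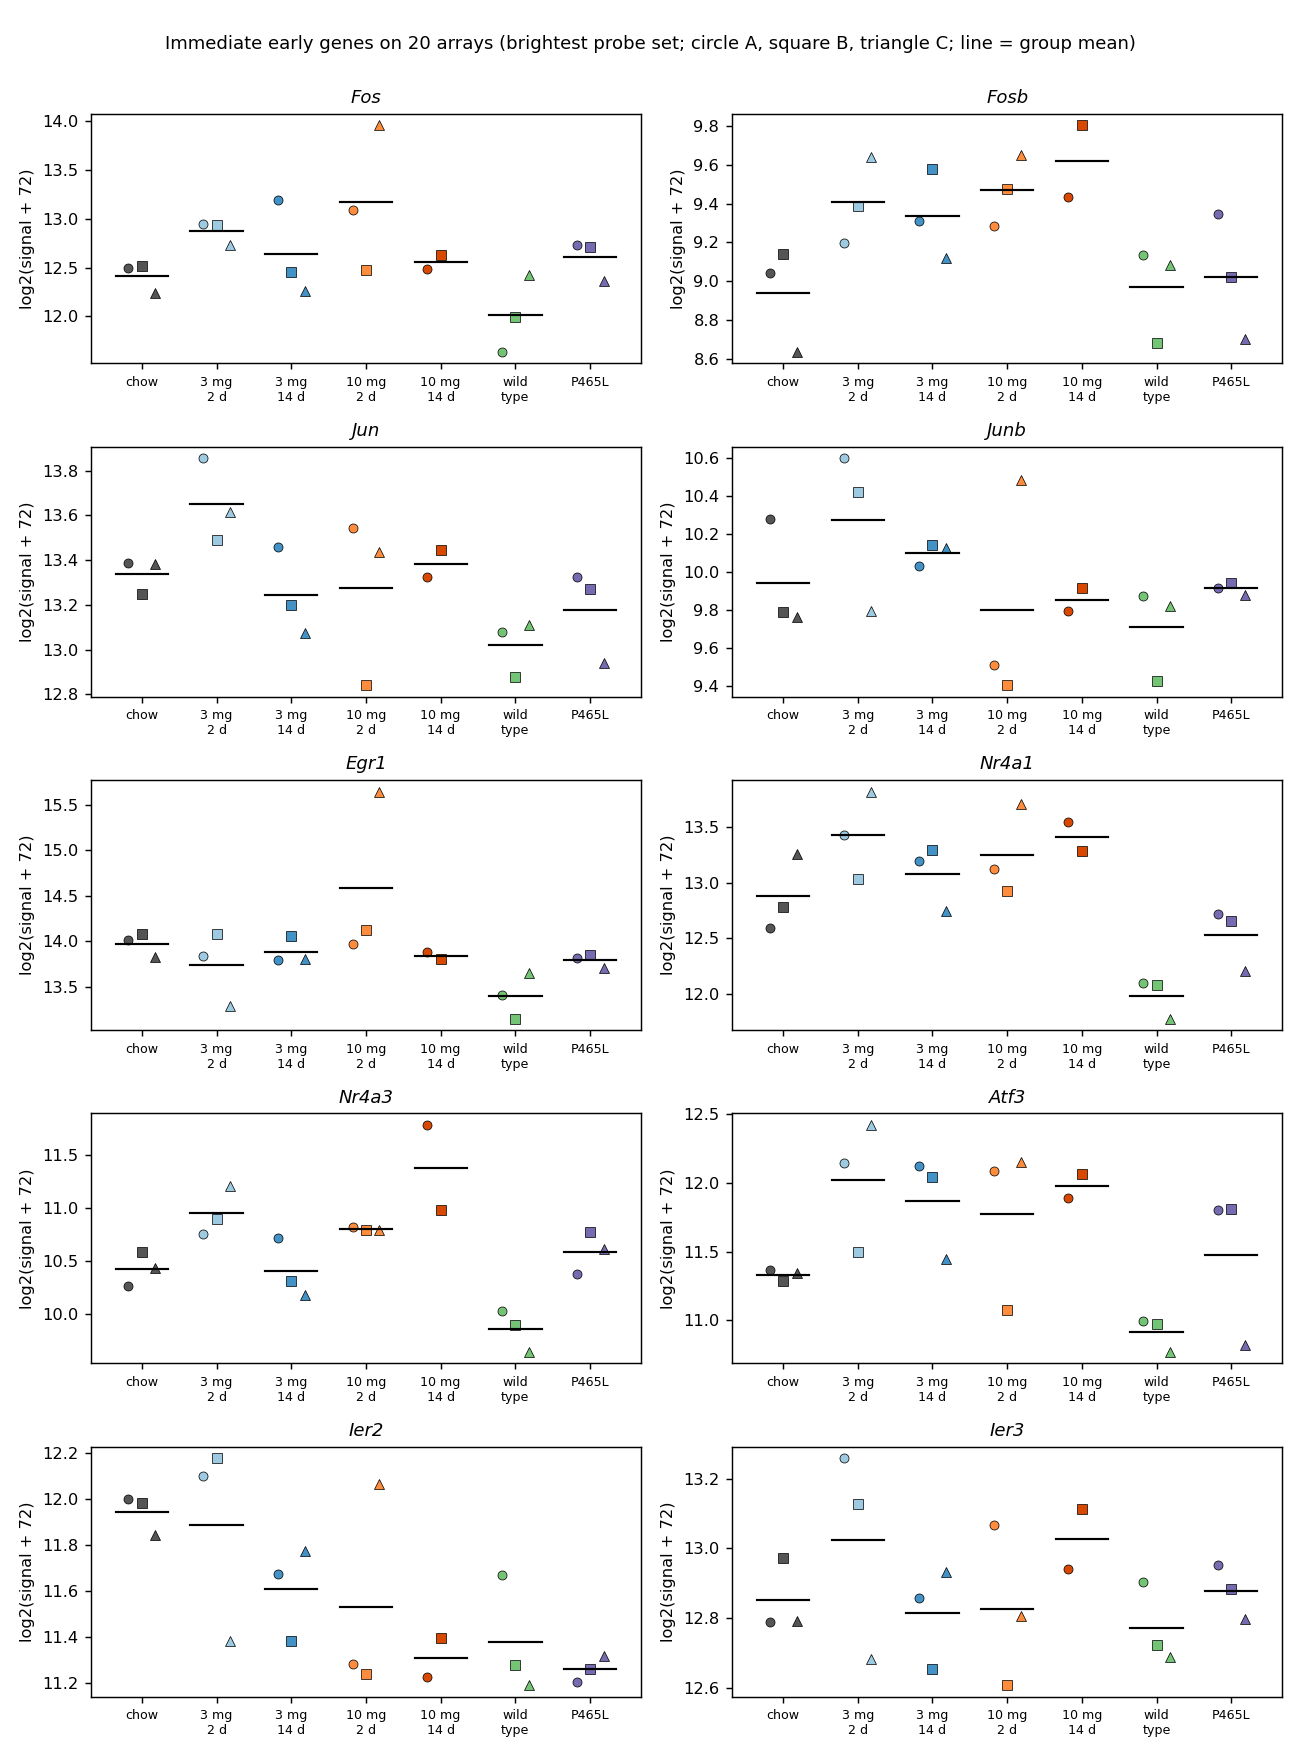
Log2 of the signal plus 72 for each of the 10 genes (1 panel a gene, each with its own vertical axis) in the 7 groups, with 1 point per array, its shape giving the array letter, and a line at the group mean. The group mean was lowest in the wild-type littermates for every gene but Fosb, lowest in chow, and Ier2, lowest in P465L. The triangle at 10 mg/kg/day for 2 days lies far above its group for Egr1 and Fos.

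Among the AP-1 genes, Fos had signals of 5695, 5785 and 4760 in chow. At 3 mg/kg/day for 2 days they were 7817, 7762 and 6722, and at 14 days 9272, 5541 and 4840.0. All 3 arrays at 3 mg/kg/day for 2 days lay above all chow arrays, while at 14 days only array A did. At 10 mg/kg/day Fos had 8639, 5601 and 15916 at 2 days, and 5678 and 6263 at 14 days. Over all rosiglitazone arrays, 7 of 11 exceeded the highest chow array and 0 lay below the lowest. The average was 1.31-fold of chow (log2 fold change 0.39, SE 0.22, limma adjusted p = 0.43).

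Fosb, another Fos-family partner of Jun, had all but 1 of its rosiglitazone arrays above chow. Its chow signals were 454.5, 493.0 and 325.6. The 4 rosiglitazone groups had 515.0, 596.5 and 726.7, then 561.6, 693.1 and 484.0 at 3 mg/kg/day for 2 and 14 days, and 551.7, 638.5 and 732.5, then 620.2 and 822.3 at 10 mg/kg/day. Thus 10 of 11 rosiglitazone arrays exceeded all 3 chow arrays, and the exception was array C at 3 mg/kg/day for 14 days. The log2 fold change was 0.52 (SE 0.18, limma adjusted p = 0.17).

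Jun and Junb, the Jun-family subunits of AP-1, had averages close to chow. Jun had 10630.0, 9666 and 10594 in chow and between 7262 and 14750 on the rosiglitazone arrays, of which 7 lay above and 3 below the chow range. Its average log2 fold change was 0.05 (95% confidence interval -0.21 to 0.31). Junb had 1170, 813.3 and 796.2 in chow and between 604.4 and 1480 with rosiglitazone, and its average log2 fold change was 0.06 (95% confidence interval -0.34 to 0.46). The intervals still allow a difference of either sign.

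Egr1 had 16467, 17233 and 14428 in chow and its average with rosiglitazone was a log2 fold change of 0.04 (95% confidence interval -0.43 to 0.51). Its rosiglitazone arrays included 1 at 51194, described below, and the other 10 lay between 9922 and 17819. The orphan receptor Nr4a1 had 6111, 6950 and 9715 in chow, where array C stood above the others, and 6782 to 14361 with rosiglitazone. Of the 11 rosiglitazone arrays, 6 exceeded all chow arrays and 0 lay below them, with a log2 fold change of 0.41 (SE 0.18, limma adjusted p = 0.29).

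Nr4a3 had 1156, 1466 and 1312 in chow. At 3 mg/kg/day it had 1662, 1833 and 2295 at 2 days and 1611, 1200 and 1088 at 14 days. At 10 mg/kg/day it had 1734, 1699 and 1707 at 2 days and 3458 and 1946 at 14 days. The groups other than 3 mg/kg/day for 14 days lay wholly above chow, and over all rosiglitazone arrays 9 of 11 did, for an average log2 fold change of 0.46 (SE 0.15, limma adjusted p = 0.16). The adjusted p of Nr4a3 ran from 0.11 to 0.24 over the other settings that kept all arrays. It ran from 0.087 to 0.50 when 1 array was left out.

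Atf3 was the most even of the 10 genes in chow, at 2575, 2424 and 2527. With rosiglitazone at 3 mg/kg/day it had 4458, 2814 and 5417 at 2 days and 4383, 4157 and 2715 at 14 days. With 10 mg/kg/day it had 4287, 2087 and 4469 at 2 days and 3717 and 4217 at 14 days. Thus 10 of 11 rosiglitazone arrays lay above every chow array, and array B at 10 mg/kg/day for 2 days lay below them. The average was 1.49-fold of chow (log2 fold change 0.58, SE 0.22), with an adjusted p of 0.24 by limma.

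Ier2 stood on the other side of chow. Its chow signals of 4029, 3982 and 3606 stood above 8 of the 11 rosiglitazone arrays, which ranged from 2321 to 4563. The 3 rosiglitazone arrays above chow were arrays A and B at 3 mg/kg/day for 2 days (4322 and 4563) and array C at 10 mg/kg/day for 2 days (4214). The average log2 fold change was -0.36 (SE 0.16, limma adjusted p = 0.32). Ier3, which protects cells from some death signals, lay at 7007, 7959 and 7017 in chow and from 6163 to 9728 with rosiglitazone, with a log2 fold change of 0.07 (95% confidence interval -0.16 to 0.30).

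**Figure D2:**
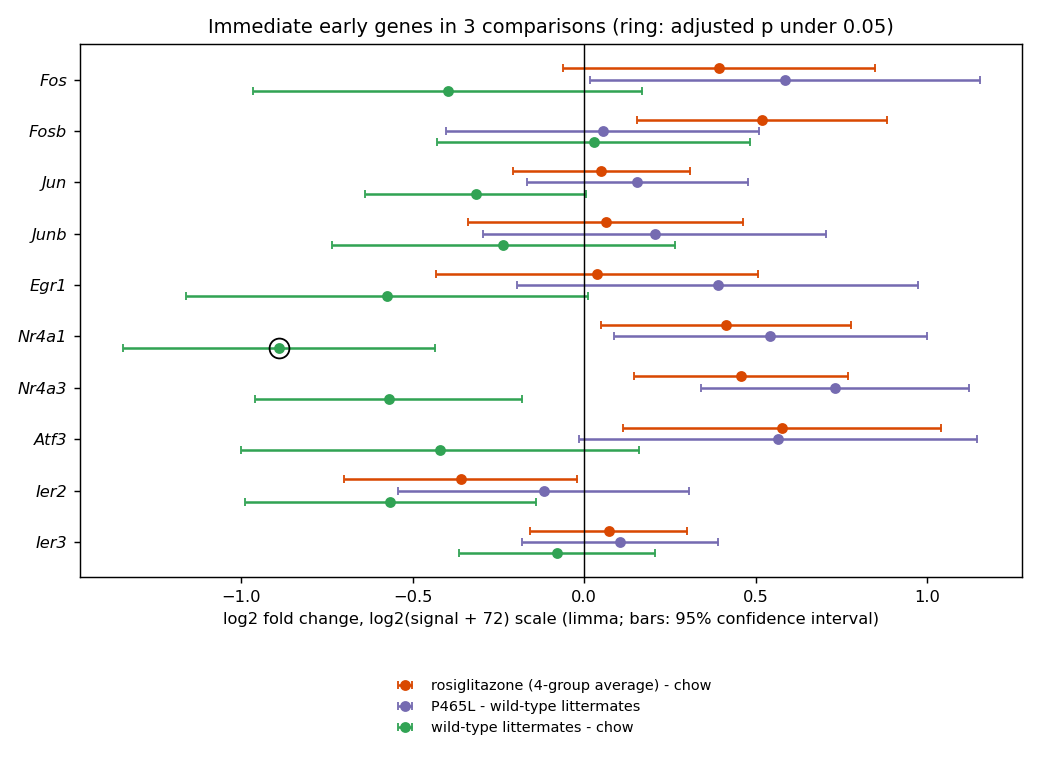
Log2 fold change of each gene (horizontal axis) in 3 comparisons: the rosiglitazone average with chow, P465L with wild-type littermates, and the latter with chow, with 95% confidence intervals from limma. Nr4a1 in the comparison of the untreated groups, at -0.89, carries the only ring, which marks an adjusted p under 0.05.

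Group by group, 3 mg/kg/day for 2 days had the most of the 10 genes wholly above chow. Fos, Fosb, Jun, Nr4a3 and Atf3 had all 3 arrays above all chow arrays, 5 of the 10 genes, where 5.09% of all genes did so. Log2 fold changes there were 0.45 for Fos, 0.47 for Fosb, 0.31 for Jun, 0.53 for Nr4a3 and 0.69 for Atf3. The median over the 10 genes was 0.39, against -0.02 over all genes tested. Limma called 0 of the 10 genes in this comparison and 0 of all genes (0.0%), while 4 of the 10 and 978 of all genes (8.83%) had an unadjusted p under 0.05. At 3 mg/kg/day for 14 days the median of the 10 genes was 0.07, and -0.05 without array A of that group. There limma again called 0 of the 10 and 0 of all genes (0.0%), and 0 of the 10 but 916 of all genes (8.27%) had an unadjusted p under 0.05. Atf3 there lay above chow on every array, at a log2 fold change of 0.54, and 6.13% of all genes lay higher without overlap. Ier2 lay below chow on every array, at -0.33, and 7.49% of all genes lay lower without overlap.

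At 10 mg/kg/day for 2 days, Fosb (log2 fold change 0.53) and Nr4a3 (0.37) had no overlap with chow, 2 of the 10 genes against 10.2% of all genes. Fos had the largest average difference at 0.76 (SE 0.27, limma adjusted p = 0.19), followed by Egr1 at 0.61 (SE 0.28, adjusted p = 0.32), and for both the arrays overlapped chow. Limma called 0 of the 10, against 0.505% of all genes, and 3 of the 10 had an unadjusted p under 0.05, against 15.2%. The Fos and Egr1 values rested on array C. Without it, the log2 fold change was 0.36 for Fos (adjusted p = 0.60) and 0.08 for Egr1 (adjusted p = 0.91), and the median over the 10 genes went from 0.37 to 0.11. Ier2 and Junb were also lower without array C, Ier2 going from -0.42 to -0.68 (adjusted p = 0.18) and Junb from -0.15 to -0.49 (adjusted p = 0.39).

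Array C at 10 mg/kg/day for 2 days was the highest of all 20 for Egr1 and Fos. Its Egr1 signal was 51194, while the other 19 arrays ranged from 8991 to 17819. It stood at 3.02-fold of the rest of its group for Egr1, and 0 of 11081 genes deviated further upward. Fos stood at 2.27-fold of the rest of the group, with 9 genes further up, and Junb at 2.04-fold with 19 genes further up. Genes that deviated downward are not in these counts. Ier2 stood at 1.75-fold, Nr4a1 at 1.60-fold, Atf3 at 1.48-fold, Fosb at 1.21-fold and Jun at 1.185-fold. For Atf3 and Jun, array A of the group also stood above the rest, at 1.39-fold and 1.325-fold. Nr4a3 (0.995-fold) and Ier3 (0.979-fold) on array C did not stand above the rest of the group. The array was otherwise close to its group: 0.56% of all genes were over 2-fold from the rest, against 0.74% for arrays A and B. Without it the rosiglitazone average over all groups was 0.30 for Fos, -0.10 for Egr1 and -0.02 for Junb, the last 2 on the other side of chow.

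**Figure D3:**
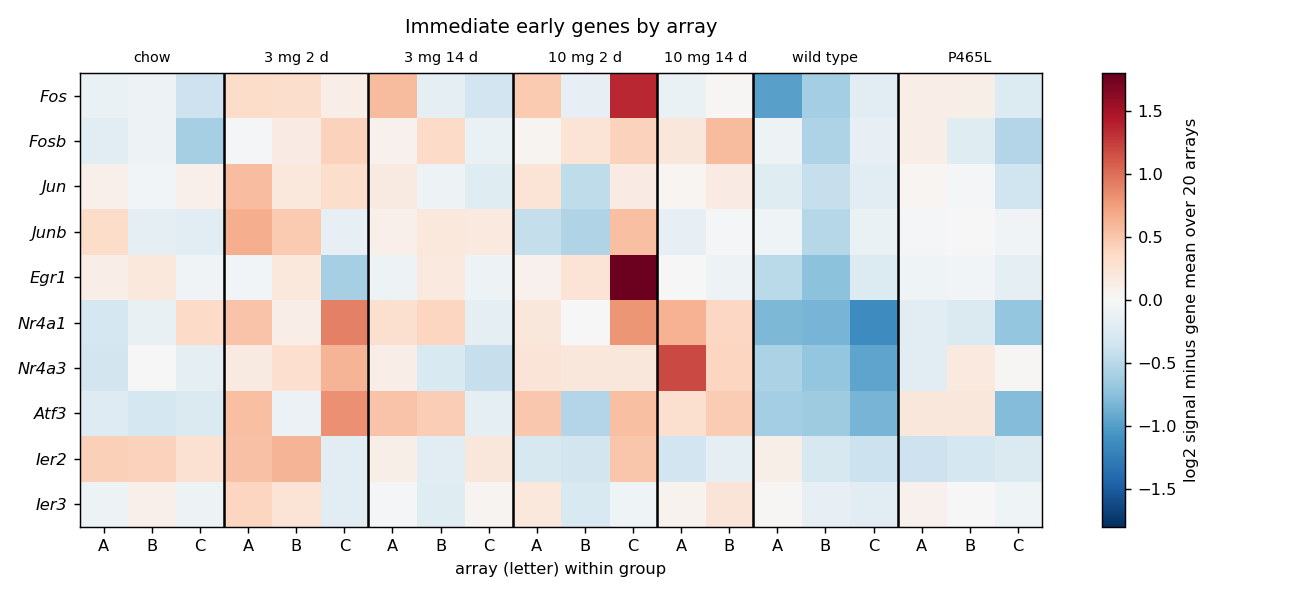
Log2 signal of each gene (rows) on each array (columns, by group and letter) minus that gene's mean over the 20 arrays, from blue for lower to red for higher. The darkest red cells are Egr1 and Fos on array C at 10 mg/kg/day for 2 days, and the wild-type columns are blue for most genes.

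At 10 mg/kg/day for 14 days, with 2 arrays, Fosb (log2 fold change 0.68), Nr4a1 (0.54), Nr4a3 (0.95) and Atf3 (0.64) lay above chow without overlap, 4 of the 10 genes against 14.8% of all genes. Ier2 lay below it at -0.63 (SE 0.23, adjusted p = 0.26 by limma), where 20.3% of all genes lay lower without overlap. Limma called 0 of the 10 genes, against 0.271% of all genes, and 4 of the 10 had an unadjusted p under 0.05, against 12.6%. Nr4a3 came nearest, at 1.94-fold of chow (SE of the log2 fold change 0.21, adjusted p = 0.057). It passed the threshold with quantile normalization (adjusted p = 0.036), with array weights (0.016) and without array B (log2 fold change 1.36, adjusted p = 0.022), and without array A it was 0.55 (adjusted p = 0.65). The adjusted p ran from 0.016 to 0.17 over the settings that kept all arrays.

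Dose and time were compared within the rosiglitazone groups. The groups at 10 mg/kg/day stood above those at 3 mg/kg/day by a log2 difference of 0.41 for Nr4a3 (SE 0.14, limma adjusted p = 0.28) and 0.40 for Egr1 (adjusted p = 0.43), and below them by -0.36 for Junb (adjusted p = 0.41) and -0.33 for Ier2 (adjusted p = 0.38). The Nr4a3 difference was 0.21 (adjusted p = 0.67) without array A at 10 mg/kg/day for 14 days. The Egr1 difference was 0.14 without array C at 10 mg/kg/day for 2 days, and that of Junb was then -0.53 (adjusted p = 0.36). Between 14 and 2 days the log2 difference was largest for Fos, at -0.43 (SE 0.20, adjusted p = 0.999), and lay between -0.29 (Egr1) and 0.04 (Fosb) for the other 9 genes. Without array C at 10 mg/kg/day for 2 days these differences were -0.23 for Fos, -0.03 for Egr1, 0.11 for Junb and 0.12 for Atf3. Limma called 0 of the 10 genes and 0 of all genes (0.0%) for dose and for time. At an unadjusted p under 0.05 there were 2 of the 10 and 1405 of all genes (12.7%) for dose, and 0 of the 10 and 464 of all genes (4.19%) for time.

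The next comparison asked how the genes stood in P465L mice against their wild-type littermates. In P465L the average was higher for 9 of the 10 genes, most for Nr4a3 (1.66-fold), Fos (a log2 fold change of 0.59), Atf3 (1.48-fold) and Nr4a1 (1.46-fold), and lower for Ier2. Junb, Egr1, Nr4a1 and Nr4a3 had all 3 P465L arrays above all 3 wild-type arrays, 4 of the 10 genes against 7.35% of all genes. Limma called 0 of the 10, against 0.018% of all genes, and 3 of the 10 had an unadjusted p under 0.05 while 823 of all genes (7.43%) did. The median log2 fold change of the 10 genes was 0.30, and that of all genes 0.01, with 51.1% of all genes higher. Without wild-type array B the median of the 10 genes was 0.17.

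Nr4a3 had signals of 972.5, 884.3 and 727.8 in wild-type littermates and of 1264, 1678 and 1492 in P465L. The groups did not overlap, and the log2 fold change was 0.73 (SE 0.19, limma adjusted p = 0.45). With the mean of its 3 probe sets, which are described below, it was 0.04 (adjusted p = 0.98). Nr4a1 had 4319, 4260 and 3442 in wild-type littermates and 6684, 6380 and 4666 in P465L, again without overlap and 0.54 higher on the log2 scale (SE 0.22, adjusted p = 0.65). Nr4a1 was thus lowest in the wild-type littermates, and the P465L mean stood between theirs and that of chow.

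Fos had 3102, 4016 and 5425 in wild-type littermates and 6722, 6648 and 5207 in P465L. Array C of the wild-type group lay above array C of P465L, so the groups overlapped, and the log2 fold change was 0.59 (SE 0.27, limma adjusted p = 0.66). Atf3 had 1973, 1936 and 1675 in wild-type littermates and 3507, 3521 and 1734 in P465L. Arrays A and B of P465L stood well above the wild-type arrays and array C lay within their range (log2 fold change 0.57, SE 0.28, adjusted p = 0.67), and without array C of P465L it was 0.89.

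Egr1 had 10752, 8991 and 12744 in wild-type littermates and 14291, 14626 and 13321 in P465L, 0.39 higher on the log2 scale in P465L (SE 0.28, limma adjusted p = 0.76). Junb had 866.3, 616.6 and 832.0 against 894.3, 913.1 and 869.8, at 0.21 (SE 0.24, adjusted p = 0.85). The gap between the Junb groups was narrow, and wild-type array B was the low one. For Fosb (0.05), Jun (0.16), Ier2 (-0.12) and Ier3 (0.11) the arrays of the genotypes overlapped.

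The rosiglitazone average and the P465L comparison use no array in common. All 10 genes had the same sign in both, 9 of them higher, where 50.4% of all genes had the same sign. None of the 10 was called in either comparison, and 4 of the signs turned when 1 array was left out: those of Junb and Egr1 in the rosiglitazone average, to as low as -0.03 and -0.10, and those of Fosb (-0.11) and Ier2 (0.03) for P465L. Genes that vary together across arrays, as described below, do not count as independent here.

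The 2 untreated groups, wild-type littermates and chow mice, were then set side by side as the background between the experiments, since no treatment separates them. Wild-type littermates were lower than chow for 9 of the 10 genes, and 6 of them, Jun, Egr1, Nr4a1, Nr4a3, Atf3 and Ier2, lay below chow on every array. Of all 11081 genes tested, 1771 lay below chow on every array, and 27.8% did not overlap when both sides are counted. Nr4a1 fell by 0.89 on the log2 scale (SE 0.22, limma adjusted p = 0.019) and was the 1 gene of the 10 called, against 6.49% of all genes called, and 3 of the 10 had an unadjusted p under 0.05, against 22.5%. Its signal averaged 4007 ± 490.2 (SD, n = 3) in wild-type littermates and 7592 ± 1886 (SD, n = 3) in chow. The call was lost without chow array C (adjusted p = 0.10), wild-type array B (0.0503) or wild-type array C (0.065). The log2 fold changes of the genes next in size were -0.57 for Egr1 (adjusted p = 0.23), -0.57 for Nr4a3 (0.072) and -0.56 for Ier2 (0.099). The median over the 10 genes was -0.41, against -0.04 over all genes. This comparison shares the wild-type arrays with the P465L comparison and the chow arrays with the rosiglitazone comparisons.

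Markers of several cell types moved with this difference and with that between P465L and wild-type littermates. The summed skeletal muscle signal was 8815 to 45653 in wild-type littermates, 2199 to 27191 in P465L and 1193 to 17484 in chow, from 4 of 4 markers found and 3 above the filter. Over the 20 arrays the marker level correlated with the mean of the 10 genes at Pearson's r -0.55 and Spearman's rho -0.57, which is a description of arrays that share groups. The summed brown adipocyte signal was 58137 to 123314 in wild-type littermates, above all chow arrays, and 23190 to 83151 in P465L. The summed smooth muscle signal (5 of 5 markers above the filter) was 418247 to 434587 in wild-type littermates, above chow (328608 to 378435) and P465L (337242 to 376442) without overlap. Fibroblast and adventitia markers (4 of 4) summed to 153323 to 180199 in wild-type littermates, also above chow (127350 to 152187) and P465L (146745 to 152713). Their mean log2 signal, each minus its own mean over the 20 arrays, overlapped: 0.04 to 0.28 in wild-type littermates, -0.18 to 0.05 in chow and 0.03 to 0.09 in P465L. That level correlated with the mean of the 10 genes at Pearson's r -0.52 and Spearman's rho -0.40, again a description. Adipocyte markers summed to 44941 to 72964 in wild-type littermates, against 23200 to 42443 in chow and 31065 to 65992 in P465L. Lymphocyte markers, with 3 of 4 found and 1 above the filter, summed to 654.7 to 1049 in P465L and 351.5 to 522.2 in wild-type littermates, without overlap. The part of these cell types in the differences was not tested.

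The order of the groups differed by gene. For Nr4a1 it ran, by mean log2 signal, from wild-type littermates (11.99 ± 0.18) through P465L (12.53 ± 0.28), chow (12.88 ± 0.34), 3 mg/kg/day for 14 days (13.08 ± 0.29), 10 mg/kg/day for 2 days (13.25 ± 0.40) and 10 mg/kg/day for 14 days (13.41 ± 0.19, n = 2) to 3 mg/kg/day for 2 days (13.42 ± 0.39; SD, n = 3 unless given). Apart from wild-type littermates and P465L, every pair of neighbours in that order overlapped. For Nr4a3 the order began with wild-type littermates (9.86 ± 0.20), then 3 mg/kg/day for 14 days (10.40 ± 0.28), chow (10.43 ± 0.16), P465L (10.59 ± 0.20), 10 mg/kg/day for 2 days (10.80 ± 0.015), 3 mg/kg/day for 2 days (10.95 ± 0.23) and 10 mg/kg/day for 14 days (11.38 ± 0.57, n = 2). The wild-type littermates and the neighbour above them did not overlap, P465L lay below 10 mg/kg/day for 2 days, and the other neighbours overlapped. For Fos wild-type littermates were again lowest (12.02 ± 0.40) and 10 mg/kg/day for 2 days highest (13.17 ± 0.75), and every pair of neighbours in the order overlapped.

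The 3 probe sets of Nr4a3 did not behave alike. The brightest, used above, lay at the 74.6th percentile of probe sets by mean log2 signal, the second at the 35.1st and the third at the 6th, and the dimmer ones were below the filter. On the second, wild-type littermates had 236.7, 157.9 and 252.4 and P465L had 81.8, 61.7 and 104.8, so P465L was lower on every array where it was higher on the brightest. In a fit to all 45037 probe sets that are not array controls, the log2 fold change for P465L was 0.73 on the brightest (adjusted p = 0.54), -0.89 on the second (adjusted p = 0.73) and 0.28 on the third (adjusted p = 0.95). Against chow the brightest and the second were both higher at 10 mg/kg/day for 2 days, by 0.37 and 0.78, and for 14 days, by 0.95 and 0.46. At 3 mg/kg/day they gave 0.53 and 0.12 for 2 days, and -0.02 and 0.09 for 14 days. On the second probe set, array A at 3 mg/kg/day for 2 days (97.9) lay below the lowest chow array (122.3). Between wild-type littermates and chow the brightest gave -0.57 and the second 0.50. The sources used here do not say what part of the transcript each probe set detects. The second probe set of Jun gave 0.35 for P465L (adjusted p = 0.82) where the brightest gave 0.16.

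**Figure D4:**
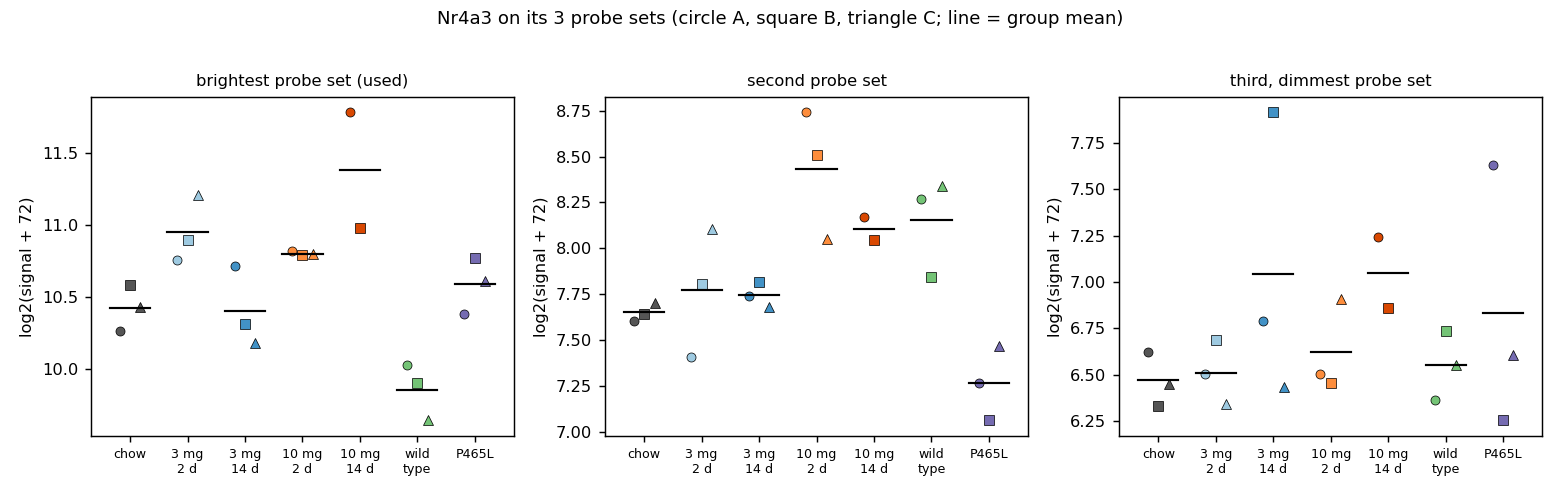
Log2 of the signal plus 72 on the 3 probe sets of Nr4a3 (1 panel each, with its own vertical axis) in the 7 groups, 1 point per array and a line at the group mean. P465L lies above wild-type littermates on the brightest probe set and below them on the second, which is dim.

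Most of these genes varied more between pools of 1 group than other genes did. The pooled within-group SD of the log2 signal was 0.42 for Egr1, 0.41 for Atf3 and 0.40 for Fos, at the 94.8th, 94.4th and 94.1st percentile of all genes tested. It was 0.32 for Junb and for Nr4a1, 0.29 for Ier2, 0.25 for Fosb and Nr4a3, 0.21 for Jun and 0.18 for Ier3, against a median of 0.19 over all genes.

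The deviations from the group means were not independent between genes. Pearson's r over the 20 arrays, taken within groups, was 0.86 for Junb and Egr1 (Spearman's rho 0.77), 0.82 for Junb and Ier2 (0.74) and 0.73 for Egr1 and Ier2 (0.48). Jun and Atf3 gave 0.81 (0.74) and Nr4a1 and Atf3 gave 0.76 (0.74). Without array C at 10 mg/kg/day for 2 days the values were 0.78, 0.74, 0.59, 0.80 and 0.74. Of the 45 pairs, 34 were above 0, with a median of 0.20. Nr4a3 had an r of -0.35 with Junb, -0.15 with Egr1 and -0.17 with Ier2. The points share arrays and scaling, and no p is given.

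**Figure D5:**
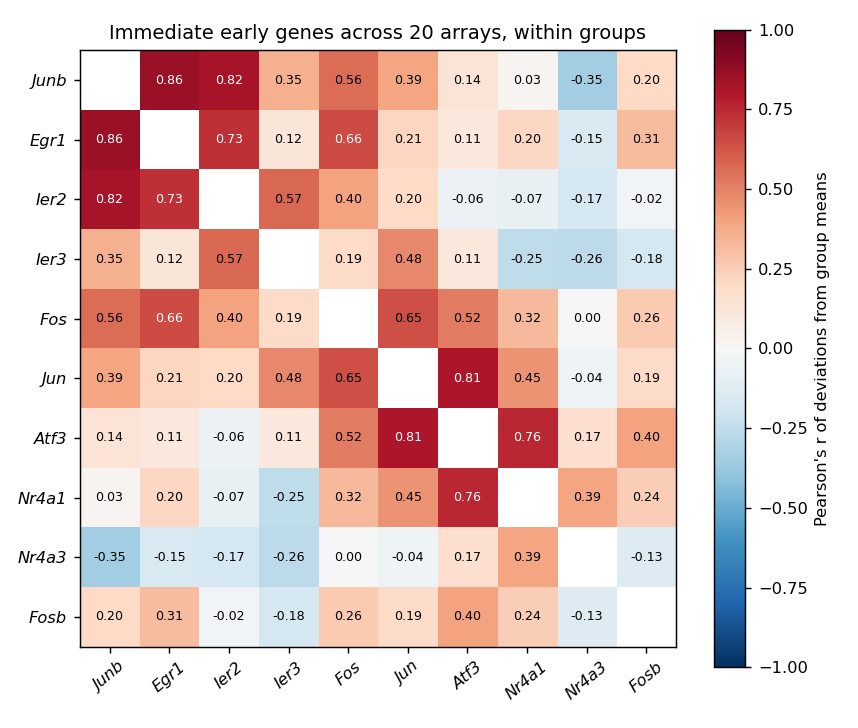
Pearson's r between each pair of the 10 genes over the 20 arrays, computed on log2 signals minus their group means, printed in each cell and coloured from blue (-1) to red (1). Junb, Egr1 and Ier2 form a block of values from 0.73 to 0.86, and Atf3 goes with Jun (0.81) and Nr4a1 (0.76).

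Over the 20 arrays, groups included, the 10 tested genes most like the mean of the 10 immediate early genes were Ccn1 (r 0.88), Csrnp1 (0.88), Btg2 (0.86), Zfp36 (0.85), Hnf4aos (0.82), Chka (0.82), Klf16 (0.82), Spry4 (0.80), Map3k3 (0.80) and Atp6v1d (0.80). The Spearman's rho of the first 4 were 0.88, 0.81, 0.88 and 0.84. Within groups their r was 0.74, 0.82, 0.84 and 0.75, and without the 2 arrays farthest out, wild-type array B and array C at 10 mg/kg/day for 2 days, 0.84, 0.79, 0.80 and 0.79. Ccn1 is a secreted matrix protein, Btg2 an antiproliferative protein and Zfp36 an RNA-binding protein that speeds messenger decay, and these 3 and Csrnp1 stood in the list of other immediate early genes. The genes most like Fos were Txn1 (r 0.76, rho 0.68), Zfp36 (0.76, 0.73), Dbr1 (0.74, 0.54), Egr1 (0.74, 0.40) and Ccn1 (0.74, 0.75). Without array C at 10 mg/kg/day for 2 days and wild-type array A, r with Fos was 0.32 for Egr1 and 0.44 for Dbr1.

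A wider list of immediate early genes held 66 genes found on the array, of which 53 passed the filter. With the rosiglitazone average, 37 of the 53 were higher and 16 lower, where 45.0% of all genes were higher. Limma called 0 of the 53, against 0.433% of all genes. Their median log2 fold change was 0.07, against -0.02 for all genes. Ccn1 stood at 0.64 (adjusted p = 0.17), the AP-1 subunit Fosl2 at 0.37 (0.23), the MAP kinase phosphatase Dusp1 at 0.24 (0.30), Zfp36 at 0.20 (0.42), the clock gene Per1 at 0.27 (0.42), Jund at 0.12, Ier5 at 0.07, Klf4 at 0.06, Btg2 at 0.05, Nr4a2 at 0.03, Myc at -0.20 and Egr3 at -0.28. Nr4a2, the remaining Nr4a receptor, thus stood near 0 where Nr4a1 stood at 0.41 and Nr4a3 at 0.46, a difference that was not tested. In P465L 32 of the 53 were higher and 21 lower, with a median of 0.05, where 51.1% of all genes were higher. Limma called 0 of the 53 there, against 0.018% of all genes. Fosl1, Batf and Egr2 were below the filter.

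Between wild-type littermates and chow, 2 of the 53 genes of the wider list were called by limma, against 6.49% of all genes. Btg2 fell by 0.71 (limma adjusted p = 0.013). Tiparp, an ADP-ribosyltransferase induced through the aryl hydrocarbon receptor, rose by 0.49 (limma adjusted p = 0.034). The list had 19 genes higher and 34 lower there, where 44.0% of all genes were higher. Klf4 stood at -0.38 (adjusted p = 0.063), Per1 at -0.54 (0.078) and Nr4a2 at -0.47 (0.11).

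Factors and kinases upstream of these genes were listed too, and all 15 found passed the filter. With the rosiglitazone average 7 were higher and 8 lower, with a median of -0.09, where 45.0% of all genes were higher. Limma called 0 of the 15, against 0.433% of all genes. Srf stood at 0.03, Elk4 at 0.04, Creb1 at 0.04 and Elk1 at -0.19. In P465L Elk1, which joins serum response factor in complexes at the Fos and Egr1 promoters, stood at -0.83 (adjusted p = 0.49). Mrtfa, a coactivator of serum response factor, fell by 0.48 in wild-type littermates against chow (adjusted p = 0.042), and was the 1 of the 15 called there, against 6.49% of all genes.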

How the data were processed

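RNA from pools of 8 mouse aortas was measured on 20 Affymetrix mouse genome arrays. The deposited intensity values are linear signals per probe set, made by the authors with MAS5, per the submitters' processing notes. The version and any filter are not given in the sources used here. From the values, each array was scaled to a 2% trimmed mean of 1500, which assumes that the bulk of the signal is equal between arrays.

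The 45101 probe sets comprised 64 controls, 34945 annotated with 1 symbol, 932 with several symbols and 9160 with none. Each of 18193 genes took its brightest probe set, and 11081 genes whose mean reached the 50th percentile of probe sets (log2 8.73, a signal of 352) were tested. MAS5 noise in dim probe sets is why a filter and an offset of 72, the 20th percentile of all values, were used. Signals were log2-transformed after adding the offset.

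limma 3.58.1 in R 4.3.3 fitted 1 model with 7 group means to the 20 arrays, with 13 residual and 7.34 prior degrees of freedom and variances moderated along their trend with the mean. Precision is limited by the number of arrays. Two-sided tests were used, with Benjamini-Hochberg adjustment over the 11081 genes and a threshold of 0.05. The adjusted p of every gene named is from this model unless another is given. Array letters are not stated to pair the samples, and no block was used. For 57 same-letter pairs from different groups, the r of deviations from group means ran from -0.301 to 0.358, with a median of 0.025. For 114 different-letter pairs it ran from -0.4 to 0.317, with a median of -0.012. Alternatives were the offset, the filter, quantile normalization, the mean of a gene's probe sets, no variance trend, array weights, each experiment alone, a replicate block and leaving out each array. A fit to every probe set was added after seeing the data. The steps were tested on simulated data. Promoters came from RefSeq on GRCm38.p6.

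The 10 genes and the lists were chosen with earlier results of these data known. The text names all 10 genes and all their probe sets, a set of related immediate early genes and any other called member of that list, upstream factors that were called or otherwise a fixed few, of which Srf, Elk1, Elk4 and Creb1 are given, the 10 genes most like the mean of the 10 genes and the 5 most like Fos. Other upstream and related genes without a probe set of their own symbol were not analysed here. Tables and figures were made with Python 3.11.15, numpy 2.4.6, pandas 2.3.3, scipy 1.17.1 and matplotlib 3.10.9.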

Additional observations from a re-analysis of the deposited data

Results flagged for a closer look

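Junb stood on opposite sides of the chow mean at the 2 doses after 14 days, though all 5 arrays lay within the chow range. All 3 arrays at 3 mg/kg/day lay above the chow mean and both arrays at 10 mg/kg/day lay below it, and the log2 difference of the latter from the former was -0.25. Without chow array A, the log2 fold change from chow at 10 mg/kg/day was 0.08, above chow as at 3 mg/kg/day (0.32). The difference between the doses at 14 days was not tested.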

How the results depend on the processing

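Of 564 values of the 10 genes recomputed over 33 results, 544 kept their direction and their side of the threshold, 13 changed sign, 4 passed the threshold newly and 3 lost it. With the mean of the probe sets, Nr4a3 was 0.0041 in wild-type littermates against chow and 0.0415 for P465L. The counts of genes called changed most with array weights, which gave 260 for the rosiglitazone average, 612 for 10 mg/kg/day for 2 days, 256 for 10 mg/kg/day for 14 days and 6 for P465L, and which called 1 of the 10 genes at 10 mg/kg/day for 14 days and 2 between wild-type littermates and chow. Quantile normalization called 1 of the 10 genes at 10 mg/kg/day for 14 days and 1 gene of all for P465L. Without the variance trend the counts were 28 for the rosiglitazone average, 13 and 0 for 10 mg/kg/day for 2 and 14 days, and 1 for P465L. With the mean of the probe sets they were 27 for 10 mg/kg/day for 2 days, 1 for P465L and 455 for wild-type littermates against chow, and without the filter 0 for 10 mg/kg/day for 14 days. With each experiment alone they were 14 and 9 at 10 mg/kg/day for 2 and 14 days, 0 for P465L and 5 for time. The fit with a replicate block called 1 gene for P465L and 2 for dose, and changed no call among the 10 genes. The causes were not tested.

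Leaving out 1 array at a time gave 1 to 83 called genes for the rosiglitazone average, 0 to 3 and 0 to 5 at 3 mg/kg/day for 2 and 14 days, 0 to 18 and 0 to 9 at 10 mg/kg/day for 2 and 14 days, 0 to 3 for P465L and 279 to 620 for wild-type littermates against chow. Among the 10 genes it called 0 to 1 at 10 mg/kg/day for 14 days and 0 to 1 between wild-type littermates and chow. The median of the 10 genes at 10 mg/kg/day for 2 days ran from 0.111 to 0.4545. Junb (-0.0281 to 0.23) and Egr1 (-0.0956 to 0.1137) changed sign in the rosiglitazone average, Fosb (-0.107 to 0.2151) and Ier2 (-0.2134 to 0.0278) for P465L, and Fosb (-0.1235 to 0.1701) between wild-type littermates and chow. With 2 or 3 pools a group and a spread of 0.40 to 0.42 for Fos, Atf3 and Egr1, the confidence intervals given with the values set what could be seen. Arrays have no read depth, and the dimmer probe sets of Nr4a3 lay under the filter.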
